A study of Homo sapiens with 4 samples.

Results

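The 10 genes described here are CENPA, CENPC, CENPH, CENPI, CENPK, CENPM, CENPN, CENPU and CENPW, which encode proteins of the inner kinetochore, the layer that sits on the centromere of each chromosome, and HJURP, the chaperone of CENP-A. They were taken by name from a table of 28729 genes, each matched through its Ensembl identifier to 1 row. All 10 had a mean FPKM of at least 1 (fragments per kilobase of exon, divided by library size) and were among the 12645 genes tested. The cells were TU-177, an established line of human laryngeal squamous cell carcinoma (LSCC), grown in medium with fetal bovine serum. The NC group carried a lentiviral negative control and the SKA3-KD group a lentiviral shRNA against SKA3, a subunit of the outer kinetochore SKA complex, as the labels give them. The methods of the study also describe guide RNAs with Cas9 for stable SKA3 knockdown cells, and which construct the sequenced cells carried rests on the labels alone. In both groups the cells were selected with puromycin, so each library comes from a resistant population and not from sorted or single cells. Each group had 2 libraries, numbered 1 and 2. The labels do not say whether these came from separate cultures, so the p-values measure only the spread between these libraries, which may be technical. The comparison asked how the mRNA of the centromere's own proteins stood in cells with less SKA3.

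CENP-A is a variant of histone H3 that replaces it in centromeric nucleosomes and marks where the kinetochore forms. HJURP brings new CENP-A to the centromere after cell division. On this chromatin assembles the constitutive centromere-associated network, in which CENP-C and CENP-N contact the CENP-A nucleosome, CENP-H, CENP-I, CENP-K and CENP-M form a common subcomplex, CENP-U belongs to another, and CENP-W joins CENP-T in a histone-like DNA-binding unit. CENP-C and CENP-T recruit the MIS12 and NDC80 complexes, and the SKA complex loads onto NDC80 in mitosis. Transcription of many of these genes follows the cell cycle, and CENPA and HJURP are commonly used as G2 and M phase genes.

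Library size was worked out as the number that turned FPKM times exon length into whole reads for most genes. It ran from 9015056 reads (NC 2) to 11966130 reads (NC 1). The reads recovered on genes summed to more than this size in every library (12333048 in NC 1). The reason was not tested. The members held between 75 and 853 reads in a library. SKA3 itself stood at 9.40 and 9.64 FPKM in NC against 3.77 and 4.12 in SKA3-KD. It fell by 1.09 on the log2(FPKM + 1) scale (standard error 0.075, adjusted p = 0.00806, limma). Counting error alone gives SKA3 a standard error of 0.11 on the log2 ratio, above that of limma. The adjusted p-value of SKA3 was 0.066 without NC 1 and 0.0601 without NC 2, and the number of all genes called fell to 0 without either. Of 9 squamous epithelial markers 8 were analysed. KRT17, SFN, DSP and DSC3 were the markers with a mean FPKM of at least 1, while KRT5, KRT14 and KRT6A held at most 4 reads in any library and TP63 stayed between 0.348 and 0.580 FPKM. The summed level of the 8 was 259 and 272 FPKM in NC and 231 and 256 in SKA3-KD, and KRT17 was lower past the threshold (log2 fold change -0.53, adjusted p = 0.0396, limma). The part of the KRT17 difference in the members' values was not tested. The 5 fibroblast markers summed to between 6.38 and 7.43 FPKM, mostly COL1A1 (2.66 to 3.99) and PDGFRB (2.46 to 4.13). The leukocyte markers PTPRC and CD68 and the endothelial markers VWF and CDH5 summed to at most 0.0507 and 0.0968 FPKM.

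None of the 10 members was past an adjusted p-value of 0.05 in limma on log2(FPKM + 1), in either direction. Over all genes tested, 6.16% were higher and 6.11% lower by that rule. The smallest adjusted p-values were those of CENPA (0.066) and HJURP (0.0905). At an unadjusted p-value under 0.05, CENPA, HJURP, CENPH and CENPI were higher and CENPW was lower, which is 4 and 1 of 10 members against 16.2% and 15.1% of all genes. Limma voom on the recovered reads put 2 of 10 members, CENPA and HJURP, past an adjusted p-value of 0.05, both higher, and none lower. Voom called 12.8% of all genes higher and 13.0% lower.

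In 7 members both SKA3-KD libraries lay above both NC libraries (CENPA, CENPC, CENPH, CENPI, CENPN, CENPU and HJURP). In CENPW both lay below, and in CENPK and CENPM the groups overlapped. In bulk RNA, more cells that express a gene and more of its mRNA per cell cannot be told apart. Of all genes tested, 32.3% had both SKA3-KD libraries above and 29.2% had both below. The median log2 fold change of the members was 0.16, beside 0.010 for all genes tested. The difference between the groups was larger than the difference between either pair of replicates in 5 members, CENPA, HJURP, CENPH, CENPI and CENPN, all on the higher side, beside 26.6% of all genes tested. In CENPC, CENPK, CENPM, CENPU and CENPW it was not.

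**Figure D1:**
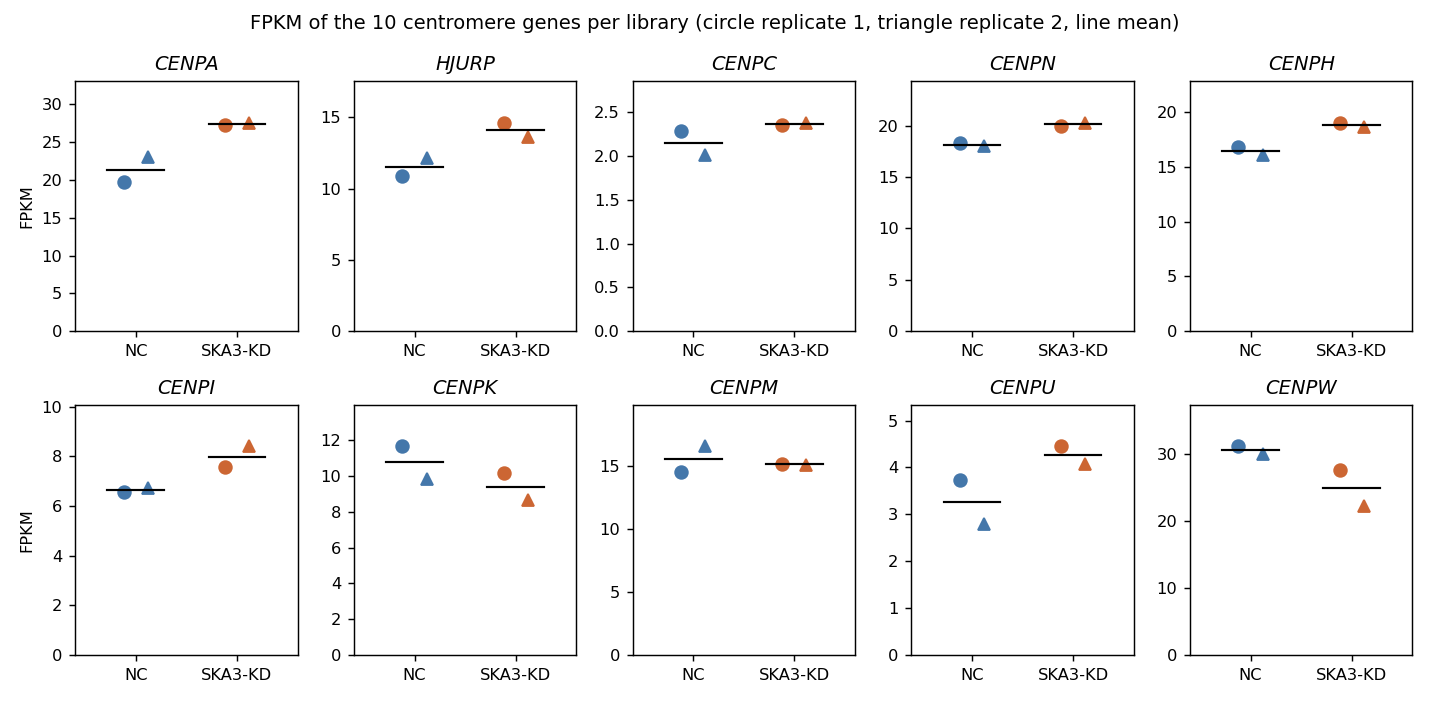
FPKM of each member in the 4 libraries, with circles for replicate 1, triangles for replicate 2 and a line at the mean of the 2 libraries; every axis starts at 0. CENPA runs from 19.7 to 23.0 in NC and from 27.3 to 27.6 in SKA3-KD, and CENPW is the 1 member with both SKA3-KD libraries below both NC libraries.

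CENPA (ENSG00000115163; chromosome 2 of GRCh38, 26764289 to 26801067) had 19.7 and 23.0 FPKM in the NC libraries and 27.3 and 27.6 in the SKA3-KD libraries, from 467, 412, 550 and 645 reads. Both SKA3-KD libraries lay close together and above both NC libraries, and the NC libraries differed from each other more than the SKA3-KD libraries did. The means were 21.4 ± 2.38 in NC and 27.4 ± 0.232 in SKA3-KD (SD, n = 2 each), a ratio of 1.28. The log2 fold change was 0.35 (standard error 0.088, 95% interval 0.12 to 0.58, adjusted p = 0.066, limma). It passed the threshold with a mean FPKM of at least 5 as the filter (adjusted p = 0.0278, limma) and with voom (log2 fold change 0.36, adjusted p = 0.00967). Over all alternatives the adjusted p-value ran up to 0.209. Without NC 1 the fold change was 0.24 and without NC 2 it was 0.46. CENPA exons overlap SLC35F6 on the same strand, which differed by 0.14 on the log2 scale (adjusted p = 0.187, limma). The part of shared reads in the CENPA values was not tested.

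HJURP (ENSG00000123485; chromosome 2, 233833416 to 233854566), the chaperone of CENP-A, was at 10.9 and 12.1 FPKM in NC and at 14.6 and 13.6 in SKA3-KD. Both SKA3-KD libraries were again above both NC libraries. The log2 fold change was 0.27 (standard error 0.080, 95% interval 0.069 to 0.48, adjusted p = 0.0905, limma). It was 0.29 with voom, where it passed the threshold (adjusted p = 0.0315). Its adjusted p-value ran up to 0.312 over the alternatives. The HJURP exons overlap those of MROH2A on the opposite strand, a gene with at most 3 reads in any library.

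The promoters of CENPA, HJURP and CENPW are shown because CENPA and HJURP had the lowest adjusted p-values of the members and CENPW the most negative fold change. Each runs from 140 bases before the annotated transcription start to 30 bases from it (RefSeq, GRCh38.p14), on the strand of the gene. The CENPA window lies inside the gene span given above (26764289 to 26801067) and not at its first base. Capitals mark the letters TTTGAA of the cell cycle genes homology region (CHR), an element of many G2 and M phase promoters, its variant TTCGAA, and the NF-Y box CCAAT, on either strand.
CENPA, chr2:26785916-26786085, plus strand: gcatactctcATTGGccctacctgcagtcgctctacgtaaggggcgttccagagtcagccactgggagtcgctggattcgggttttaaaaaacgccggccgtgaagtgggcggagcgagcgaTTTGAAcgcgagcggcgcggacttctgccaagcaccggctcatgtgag
HJURP, chr2:233854506-233854675, minus strand: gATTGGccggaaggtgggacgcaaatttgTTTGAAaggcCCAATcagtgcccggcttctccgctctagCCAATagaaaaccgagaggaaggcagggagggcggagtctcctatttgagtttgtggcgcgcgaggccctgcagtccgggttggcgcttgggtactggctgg
CENPW, chr6:126339975-126340144, plus strand: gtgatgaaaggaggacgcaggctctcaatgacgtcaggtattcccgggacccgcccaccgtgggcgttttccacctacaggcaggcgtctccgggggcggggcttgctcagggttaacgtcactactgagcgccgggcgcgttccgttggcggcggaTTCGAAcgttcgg

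Counted from the start, the CHR letters began at base -18 in CENPA and at base -111 in HJURP, where an NF-Y box follows at base -101. The CENPW promoter held the variant letters instead, at base 18 from the start. Promoter entries were matched for 8 of the 10 members, all but CENPH and CENPM. Over windows of 250 bases before to 50 from the start, the CHR letters were in 4 of the 8 (CENPA, CENPC, CENPN and HJURP) and in 15.2% of 35116 promoters. The variant was in 1 of 8 and in 1.45%, and the NF-Y box in 7 of 8 and in 34.6%. CENPI, whose SKA3-KD libraries were above both NC libraries, held none of the 3, and CENPK and CENPU held the NF-Y box alone. A match of letters is a description of the window and was not tested as a binding site.

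**Figure D2:**
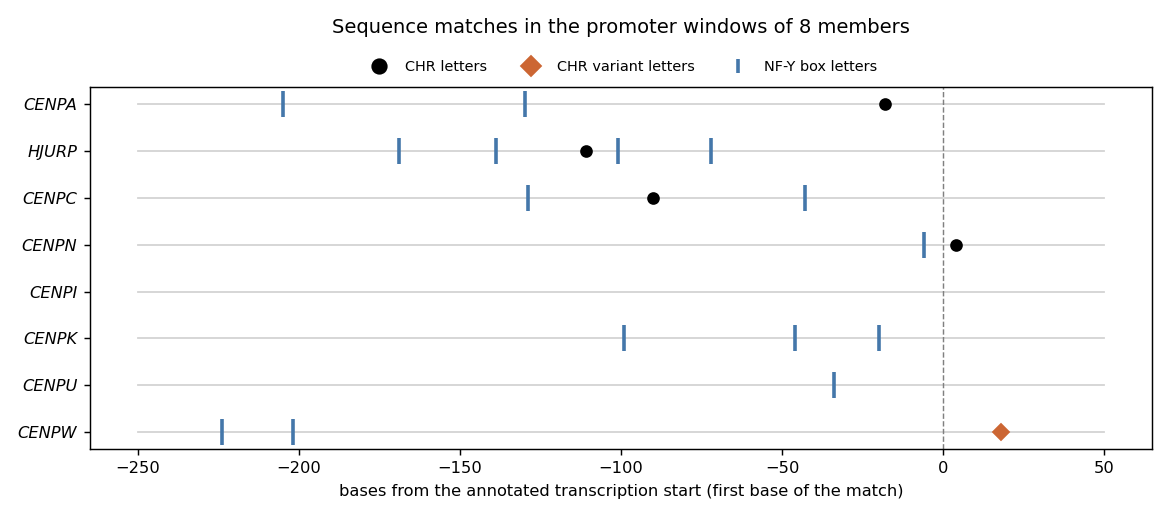
Position of the CHR letters (circles), the CHR variant (diamond) and the NF-Y box (bars) in the promoter windows of 8 members, in bases from the annotated start, with the dashed line at the start. CENPA has its CHR letters at base -18, CENPN holds them at base 4, and CENPI has no match.

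CENPC and CENPN, the readers of the CENP-A nucleosome, had smaller log2 fold changes than CENPA, with overlapping intervals and a contrast that was not tested. CENPC (ENSG00000145241; chromosome 4, 67468748 to 67545606) was at 2.29 and 2.02 FPKM in NC and at 2.35 and 2.38 in SKA3-KD. The SKA3-KD libraries were above both NC libraries by less than the NC libraries differed from each other. Its log2 fold change was 0.097 (standard error 0.11, 95% interval -0.18 to 0.38, adjusted p = 0.593, limma), and differences within these bounds were not resolved. It was 0.16 without NC 1 and 0.035 without NC 2. Its reads, 101 to 156 in a library, came out whole at a length of 5558 bases and also at 11116 bases, so the true number of reads may be a multiple. Its pseudogene copy CENPCP1 had 1 read in NC 1 and none elsewhere. CENPN (ENSG00000166451; chromosome 16, 81006498 to 81033114) was at 18.3 and 18.0 FPKM in NC and at 19.9 and 20.3 in SKA3-KD. The replicates of CENPN agreed closely in both groups, on 578 to 853 reads. The log2 fold change was 0.14 (standard error 0.058, 95% interval -0.0072 to 0.29, adjusted p = 0.174, limma). Exons of CENPN overlap CMC2 on the opposite strand. Whether strand was used in counting is not given in the sources used here, and CMC2 differed by -0.0020 on the log2 scale.

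The 4 subunits of the CENP-H, CENP-I, CENP-K and CENP-M subcomplex gave 2 separated and 2 overlapping pairs of groups, a contrast between them that was not tested. CENPH (ENSG00000153044; chromosome 5, 69189548 to 69210357) was at 16.8 and 16.1 FPKM in NC and at 19.05 and 18.6 in SKA3-KD. Its 4 libraries separated by group, with replicates closer to each other than to the other group. CENPI (ENSG00000102384; X chromosome, 101098218 to 101163681) was at 6.57 and 6.72 FPKM in NC and at 7.56 and 8.40 in SKA3-KD, and also separated by group. Their log2 fold changes were 0.18 (standard error 0.061, 95% interval 0.026 to 0.34) and 0.23 (standard error 0.078, 95% interval 0.031 to 0.43), with adjusted p-values of 0.119 and 0.121 (limma). For CENPH, counting error alone gives a standard error of 0.071 on the log2 ratio, above that of limma, so its interval may be too narrow. Voom gave CENPH 0.18 (standard error 0.096, adjusted p = 0.193) and CENPI 0.26 (standard error 0.11, adjusted p = 0.0865).

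CENPK (ENSG00000123219; chromosome 5, 65517766 to 65563171) was at 11.6 and 9.85 FPKM in NC and at 10.2 and 8.65 in SKA3-KD. SKA3-KD 1 lay between the NC libraries, and replicate 1 was above replicate 2 in both groups by more than the group means differed on the log2 scale. Its log2 fold change was -0.17 (standard error 0.11, 95% interval -0.47 to 0.12, adjusted p = 0.355, limma). It was -0.064 without NC 1 and -0.070 without SKA3-KD 2, and -0.29 without NC 2 and -0.28 without SKA3-KD 1. CENPM (ENSG00000100162; chromosome 22, 41938721 to 41947164) was at 14.5 and 16.5 FPKM in NC and at 15.1 in both SKA3-KD libraries. The SKA3-KD libraries of CENPM lay inside the NC range. Its log2 fold change was -0.033 (standard error 0.081, 95% interval -0.24 to 0.18, adjusted p = 0.822, limma), and without NC 2 it was 0.057.

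CENPU (ENSG00000151725; chromosome 4, 184694618 to 184734133) was at 3.73 and 2.79 FPKM in NC and at 4.45 and 4.07 in SKA3-KD. Both SKA3-KD libraries were higher, and NC 2, with 75 reads, was the lowest of the 4. The ratio of the means was 1.31, the largest of the members, and the log2 fold change was 0.31 (standard error 0.13, 95% interval -0.026 to 0.65, adjusted p = 0.184, limma). Without NC 1 it was 0.47 and without NC 2 it was 0.15. Counting error alone gives a standard error of 0.14 on the log2 ratio at these reads, a scale without the added 1 of the limma fit. Voom on the recovered reads gave CENPU 0.35 (standard error 0.17, adjusted p = 0.143). CENPU exons overlap PRIMPOL, a primase-polymerase gene on the opposite strand, which was at 2.29 and 1.64 FPKM in NC and at 2.90 and 2.62 in SKA3-KD (log2 fold change 0.35, adjusted p = 0.177, limma). Both genes had their lowest value in NC 2. The part of shared reads in this was not tested.

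CENPW (ENSG00000203760; chromosome 6, 126340174 to 126348875), the partner of CENP-T, was at 31.1 and 29.999 FPKM in NC and at 27.6 and 22.3 in SKA3-KD. Both SKA3-KD libraries were below both NC libraries, with SKA3-KD 2 the lower of them. The means were 30.6 ± 0.789 in NC and 24.9 ± 3.73 in SKA3-KD (SD, n = 2 each). The log2 fold change was -0.29 (standard error 0.11, 95% interval -0.57 to -0.012, adjusted p = 0.148, limma). Without SKA3-KD 2 it was -0.14 and without SKA3-KD 1 it was -0.44, so its size rested on SKA3-KD 2. Under the alternatives with all 4 libraries the adjusted p-value ran from 0.0665 to 0.307.

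**Figure D3:**
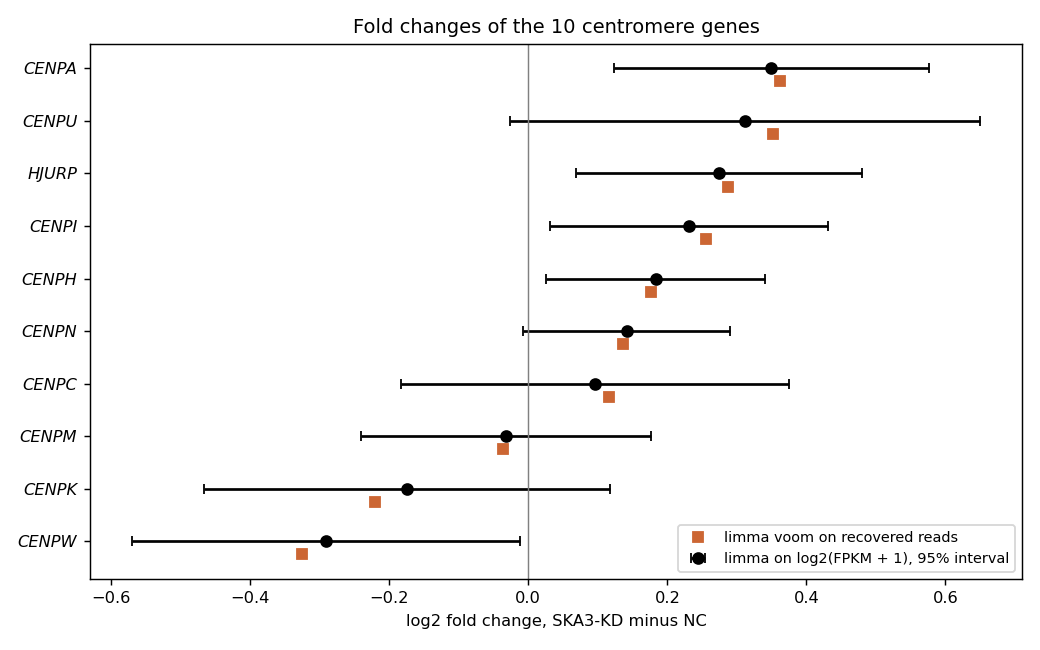
Log2 fold change of each member, SKA3-KD minus NC, from limma on log2(FPKM + 1) with its 95% interval (black) and from limma voom on recovered reads (squares, no interval drawn). The intervals of CENPA, HJURP, CENPI and CENPH lie above 0, that of CENPW lies below 0, and the remaining 5 include 0.

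Ratios between members within a library do not depend on how libraries are scaled to each other. Of the members' ratios 5 were computed, chosen after the values were seen. The CENPA to CENPW ratio of FPKM was 0.633 and 0.768 in NC and 0.989 and 1.24 in SKA3-KD. The CENPH to CENPK ratio, between subunits of a common subcomplex, was 1.45 and 1.64 in NC and 1.87 and 2.15 in SKA3-KD. Neither ratio overlapped between the groups, and the exact two-sided permutation test gave p = 0.333 for each, the smallest it can give for 2 libraries against 2 (0.556 after Benjamini-Hochberg adjustment over the 5). The HJURP to CENPA ratio, of the chaperone to the histone it carries, was 0.554 and 0.526 in NC and 0.536 and 0.493 in SKA3-KD. These groups overlapped (exact permutation p = 0.667). The CENPN to CENPH ratio overlapped too, between 1.05 and 1.12 in all 4 libraries. The CENPA to CENPC ratio was 8.61 and 11.4 in NC and 11.6 in both SKA3-KD libraries, which did not overlap (exact permutation p = 0.333), with NC 2 close to SKA3-KD.

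**Figure D4:**
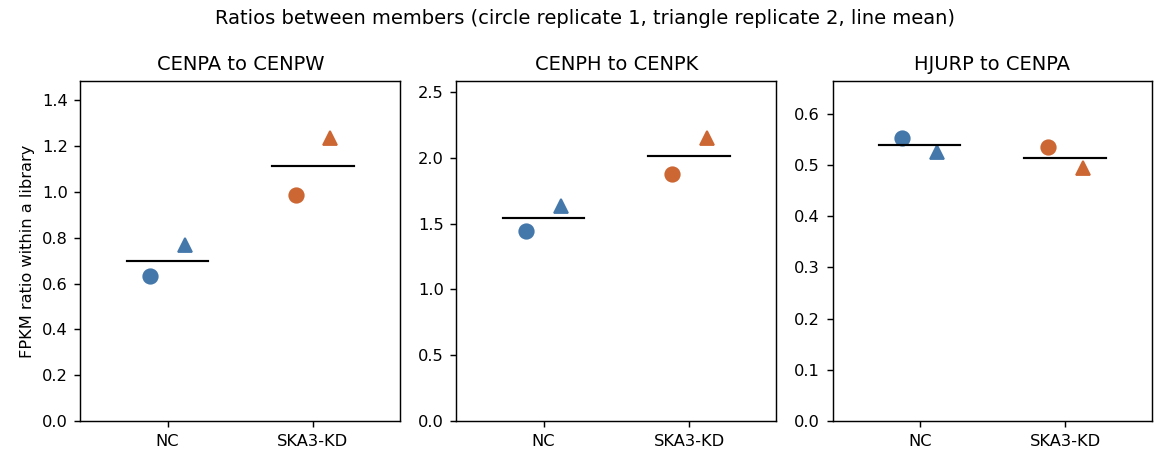
FPKM ratios of CENPA to CENPW, CENPH to CENPK and HJURP to CENPA in each library, with circles for replicate 1, triangles for replicate 2 and lines at the means; the axes start at 0. The first ratio is at most 0.768 in NC and is 0.989 or more in SKA3-KD, and the third stays between 0.493 and 0.554 in all 4 libraries.

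The members spanned a wide range of FPKM, a level per length of exon. In NC the order from high to low was CENPW, CENPA, CENPN, CENPH, CENPM, HJURP, CENPK, CENPI, CENPU and CENPC, from 30.6 to 2.15 FPKM on average. CENPW stood at the 87.3 percentile of all genes tested and CENPC at the 18.6 percentile. Neighbours in this order did not overlap between their NC libraries, except CENPH with CENPM and HJURP with CENPK. In SKA3-KD the CENPA and CENPW libraries overlapped, CENPA having the higher mean (27.4 against 24.9 FPKM), while CENPH and CENPM no longer did, nor HJURP and CENPK.

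Of the 8 other genes of the constitutive centromere network, 7 were tested, and none was past the threshold. CENPP had a mean FPKM under 1. Their median log2 fold change was 0.025, with 5 positive and 2 negative values. At an unadjusted p-value under 0.05 in limma 1 was lower, CENPX, and voom also called 1 lower. The shares of all genes lower by these 2 rules were 15.1% and 13.0%. CENPX had the largest difference, with 88.8 and 82.0 FPKM in NC and 70.1 and 74.9 in SKA3-KD (log2 fold change -0.23, adjusted p = 0.0929, limma). CENPX forms a histone-like unit with CENP-S, which binds the unit of CENP-T and CENP-W. CENPT, the partner of CENPW, overlapped between the groups, with 4.19 and 5.21 FPKM in NC and 5.04 and 4.94 in SKA3-KD. Its log2 fold change was 0.077 with all 4 libraries (adjusted p = 0.669, limma) and turned to -0.051 without NC 1.

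Of 12 genes of CENP-A loading and centromere chromatin, 3 were higher past the threshold and none lower, with a median log2 fold change of 0.13. Voom called 3 higher and 1 lower. Limma called 6.16% of all genes tested higher and 6.11% lower, and voom called 12.8% and 13.0%. The lower gene was RBBP4, a histone chaperone, with 18.6 and 18.0 FPKM in NC and 15.8 and 16.3 in SKA3-KD (log2 fold change -0.18, adjusted p = 0.125, limma, and -0.20, adjusted p = 0.0396, voom). MIS18A, a subunit of the Mis18 complex that prepares the centromere for HJURP, rose from 12.7 and 12.6 FPKM to 18.1 and 18.3 (log2 fold change 0.49, standard error 0.059, adjusted p = 0.0153, limma). Counting error alone gives MIS18A a standard error of 0.088 on the log2 ratio, above that of limma. Voom gave it 0.51 (standard error 0.11, adjusted p = 0.00181). RSF1, a chromatin remodelling subunit found with CENP-A chromatin, rose by 0.36 (adjusted p = 0.0379, limma). SSRP1, a subunit of the histone chaperone FACT, rose by 0.26 (adjusted p = 0.0440, limma). OIP5, which encodes the Mis18 beta subunit, was 0.25 higher on the log2 scale without passing the threshold (standard error 0.064, adjusted p = 0.0682, limma). Its standard error from counting alone was 0.11 on the log2 ratio, above that of limma. Voom gave OIP5 0.26 (standard error 0.13, adjusted p = 0.159).

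The MIS12 complex and KNL1 link the inner kinetochore to microtubule-binding proteins. Of 6 genes, those of this complex with KNL1 and ZWINT, 1 was lower and none higher, beside 6.11% and 6.16% of all genes tested. ZWINT alone had both SKA3-KD libraries above both NC libraries (log2 fold change 0.13, adjusted p = 0.171, limma), and 2 of the 6 had both below. The shares over all genes tested were 32.3% above and 29.2% below. NSL1, a MIS12 complex subunit, fell from 12.2 and 12.01 FPKM to 8.38 and 6.32 (log2 fold change -0.66, standard error 0.13, adjusted p = 0.0383, limma). Voom called NSL1 and DSN1 lower and none higher, beside 13.0% and 12.8% of all genes tested. DSN1, another subunit, differed by -0.22 on the log2 scale (adjusted p = 0.113, limma). A list of 4 further genes with a CENP symbol that are not inner kinetochore subunits (CENPE, CENPF, CENPV and CENPJ) had log2 fold changes between 0.32 and 0.35. CENPB, which binds centromeric DNA and was counted with the CENP-A chromatin genes, stood outside that range at 0.17 (adjusted p = 0.117, limma). In each of the 4, both SKA3-KD libraries were above both NC libraries, as in 32.3% of all genes tested. None was past the threshold in limma, all 4 were at an unadjusted p-value under 0.05, and voom called all 4 higher. Of all genes tested, 16.2% were higher at that unadjusted p-value and 12.8% by voom. CENPE, a kinesin of the kinetochore, had the largest of them, 0.35 (adjusted p = 0.107, limma).

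**Figure D5:**
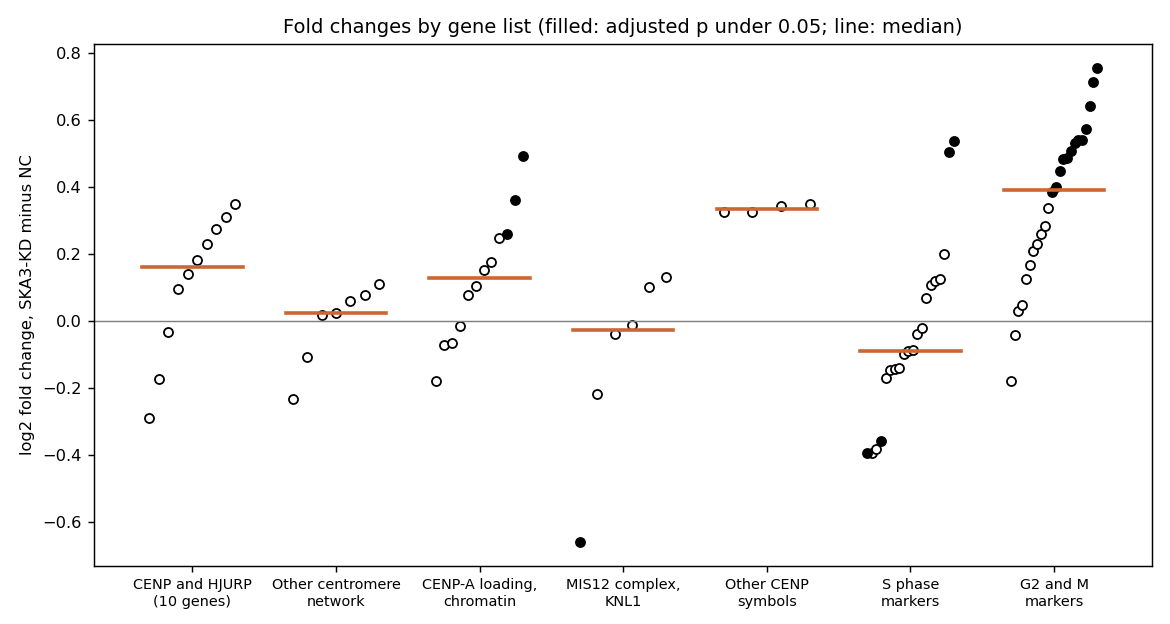
Log2 fold change of every tested gene in 7 lists, SKA3-KD minus NC, filled where the adjusted p-value (limma) was under 0.05, with a line at the median of each list. The 10 members have a median of 0.16 and no filled point, and the G2 and M phase markers have a median of 0.39 with 13 filled points.

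Markers of the cell cycle phases moved beside these values. Of 24 G2 and M phase markers that include no member, 13 were higher past the threshold and none lower. Over all genes tested, 6.16% were higher and 6.11% lower. The median log2 fold change of the 24 was 0.39, with 22 positive values and 2 negative, the lowest -0.18. The 13 were PLK1, BIRC5, CCNB1, HMMR, AURKA, CDC20, TPX2, KIF23, NUF2, CDCA8, CCNB2, BUB1 and CCNA2. Their list summed to 913 and 854 FPKM in NC and to 1177 and 1126 in SKA3-KD. Of 20 S phase markers 2 were higher (MCM6 and RRM2) and 2 lower (FEN1 and UNG), with a median of -0.089. Voom called 2 of these 20 higher and 4 lower, beside 12.8% and 13.0% of all genes tested. The S phase list summed to 822 and 809 FPKM in NC and to 793 and 789 in SKA3-KD. CENPA (0.35) and HJURP (0.27) stood below the median of the G2 and M phase markers. The part of the phase markers in the members' values was not tested. No called gene of these lists kept its call when any 1 of the 4 libraries was left out.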

How the data were processed

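RNA-seq of 4 libraries (2 NC, 2 SKA3-KD) was used. The authors deposited FPKM values per Ensembl gene and library, normalized for gene length and library size. The submitters' processing notes name Bowtie2 2.2.8, HISAT2, StringTie 1.3.1, Cuffdiff 2.1.1 and hg19. The annotation is not given in the sources used here. Symbols, positions and exon lengths came from GENCODE 29 (GRCh38), a later build than hg19. FPKM does not remove differences in RNA composition between libraries.

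SKA3-KD was compared with NC by limma 3.58.1 in R 4.3.3 (lmFit, then eBayes with trend) on log2(FPKM + 1), with Benjamini-Hochberg adjustment and a threshold of 0.05. The 12645 genes whose FPKM averaged 1 or more were tested. A fold change on this scale understates that of low genes. The methods name no test for these libraries. FPKM values were whole multiples of 1 read, within 0.01 reads, for 99.5% of these genes, 61.3% directly with the GENCODE 29 exon length and 38.2% with the smallest other length that gave whole numbers. Limma voom used these reads. The replicates of each group differed by more than sampling noise (chi-square per degree of freedom 3.80 in NC and 3.72 in SKA3-KD). The fits were also run on simulated counts with changes larger than that of any member. That run does not show how the fits behave at differences of the members' size. Python 3.11.15, numpy 2.4.6, pandas 2.3.3, scipy 1.17.1 and matplotlib 3.10.9 were also used.

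The members, gene lists and tests were chosen with earlier results of these data known. All members and SKA3 are named, and of each other list every gene past the threshold or, where none passed, the gene with the largest fold change. CENPT, CENPP, CENPCP1, CENPF, CENPV, CENPJ, OIP5, RBBP4, CENPB, DSN1, ZWINT and the genes overlapping members were named after their values were seen. Some markers were not analysed here. Alternatives were another pseudocount, filters, scalings, variance models, thresholds, a replicate block, each library left out and voom.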

Additional observations from a re-analysis of the deposited data

How the results depend on the processing

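There were 2 libraries a group, and 75 to 853 reads a member were recovered. The number of members past the threshold, 0, was 1 with a mean FPKM of at least 5, 2 with voom, 2 at an adjusted p-value under 0.1, 5 at an unadjusted p-value under 0.05 and 0 under the remaining alternatives. Of 148 alternative values for single members, 137 kept their direction and their side of the threshold. A further 10 passed the cut-off of their alternative, most of them because the unchanged fit was judged at a looser cut-off. At an adjusted p-value under 0.05, only CENPA (with a mean FPKM of at least 5, and with voom) and HJURP (with voom) newly passed. The fold change of CENPM changed sign, to 0.0575, without NC 2, and ran from -0.12 to 0.06 when 1 library was left out. Without the filter, calls numbered 0 of the CENP-A loading genes, 0 of the MIS12 and KNL1 genes, 1 of the S phase markers, 3 of the G2 and M phase markers and 129 of all genes. Without the variance trend they numbered 1, 0, 1, 8 and 693. At an unadjusted p-value under 0.05 they numbered 6, 2, 7 (S phase) and 3958 (all genes), with 1 for the other centromere network genes and 4 for the other CENP symbols. Voom gave 2 for the MIS12 and KNL1 genes, 1 for the other network genes, 4 for the other CENP symbols and 3260 for all genes, and an adjusted p-value under 0.1 gave 1 for the other network genes, 3 for the other CENP symbols and 2798 for all genes. The other CENP symbols numbered 2 with a mean FPKM of at least 5 and 1 with robust eBayes. With 1 library left out, every list had 0 calls and all genes had 0 to 181, while the SKA3 fold change ran from -1.14 to -1.04. The labels do not say whether NC and SKA3-KD libraries with the same number were handled together (correlation of their deviations 0.0973). With that number as a replicate block, 2 of the other CENP symbols passed, as did 1967 of all genes against 1551 without it, and no member passed. The cause of these changes was not tested.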
